A study of Homo sapiens with 12 samples.

Results

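The ac4C peaks of human chromosome 19 that lie outside ZNF zinc finger genes were taken from 4 deposited peak lists, as all peaks on that chromosome whose gene symbol does not start with ZNF. They numbered 6445 of the 140401 peaks in the 4 lists. The lists come from ac4C-RIP-seq, in which an antibody to N4-acetylcytidine (ac4C) pulls down pieces of RNA for sequencing, in H1, an established line of human embryonic stem cells. Wild-type H1 cells were compared with H1 cells in which NAT10 was knocked down. The knockdown cells carried an shRNA to NAT10 (shNAT10) from a lentivirus with GFP, and after 48 h of culture GFP+ cells were selected and grown in TeSR-E8 under puromycin at 0.5 ug/ml. For H1 itself the labels give PGM1 medium. They mention no control hairpin for the wild-type group, so the virus, the selection and the medium cannot be told apart from NAT10. Each group had 2 immunoprecipitation libraries and each library its own list. The input and IgG libraries of the 12 samples were not analysed here, so no peak was set against the amount of its RNA, and read depth is unknown.

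Chromosome 19 was selected on its share of the peaks in each list, which was already known to be larger in knockdown. The numbers of its peaks and their split between the genotypes are therefore given as a description. A peak is a stretch of RNA that the authors called enriched, and its span runs from the first to the last genomic base, so a span can hold introns. The authors' score of a peak has no stated meaning and was used only as a percentile within its own list. Coordinates are those of hg38, counted from 1. Nothing in the labels says that the 2 libraries of a group came from separate cultures, so the p-values measure only the spread between these libraries, which may be technical. The smallest p that 2 against 2 libraries can give in the exact permutation test is 0.333, so no comparison of genotypes could pass 0.05.

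N4-acetylcytidine is a cytidine with an acetyl group on its base. NAT10, an RNA acetyltransferase, writes it in ribosomal RNA and, with an adaptor protein, in certain tRNAs, and it has also been reported in mRNA, where the extent is debated. Chromosome 19 is the most gene-dense human chromosome, with many short housekeeping genes and large clusters of KRAB zinc finger genes. Those clusters, whose genes mostly bear ZNF symbols, were set aside here by the rule.

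Peaks at cell type markers and at NAT10 were counted first. Of 14 markers of pluripotent stem cells, 14, 13, 10 and 12 held a peak in wild-type lists 1 and 2 and knockdown lists 1 and 2, and together these genes held 109, 104, 60 and 69 peaks. None of the neural, mesoderm and trophectoderm markers held a peak in any list, and 1 of 4 endoderm markers held peaks in wild-type list 2 only. The fibroblast list had peaks in 4 of 5 genes in every list, and these 4 genes are also transcribed in other cell types. NAT10 held 7 and 9 peaks in the wild-type lists, against 0 in both knockdown lists. Of the 5607 genes that both wild-type lists held over all chromosomes, 12.8% were likewise absent from the knockdown lists. Of the 14 pluripotency markers, only DNMT3B (14 and 10 wild-type peaks) and PRDM14 (2 and 4) had this pattern. A missing peak gives no RNA level, so the NAT10 counts do not measure the knockdown. The marker totals are raw counts from lists of unequal length.

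To show what the peaks look like on the sequence, the start regions of 4 genes are printed here, from 250 bases before to 50 bases after the RefSeq transcription start (GRCh38.p14). The first carried a peak over its first 50 bases in wild type only (2 of 2 lists), the next 2 in knockdown only (2 of 2 lists), and the last in all 4 lists. Capitals mark the bases inside a peak in every list that defines the class, and all 4 genes lie on the plus strand. SMARCA4 encodes an ATPase of the SWI/SNF chromatin remodelling complex (chr19:10960780-10961079), RPS15 a protein of the small ribosomal subunit (chr19:1438146-1438445), GPX4 a glutathione peroxidase that reduces lipid peroxides (chr19:1103807-1104106) and CNN2 an actin-binding calponin (chr19:1026358-1026657).
SMARCA4: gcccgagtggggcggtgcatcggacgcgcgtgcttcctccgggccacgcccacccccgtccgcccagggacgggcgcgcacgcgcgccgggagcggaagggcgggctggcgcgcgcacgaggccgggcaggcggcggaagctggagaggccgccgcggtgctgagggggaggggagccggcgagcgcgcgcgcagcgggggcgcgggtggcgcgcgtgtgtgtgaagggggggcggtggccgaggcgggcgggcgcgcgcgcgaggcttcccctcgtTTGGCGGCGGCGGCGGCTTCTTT
RPS15: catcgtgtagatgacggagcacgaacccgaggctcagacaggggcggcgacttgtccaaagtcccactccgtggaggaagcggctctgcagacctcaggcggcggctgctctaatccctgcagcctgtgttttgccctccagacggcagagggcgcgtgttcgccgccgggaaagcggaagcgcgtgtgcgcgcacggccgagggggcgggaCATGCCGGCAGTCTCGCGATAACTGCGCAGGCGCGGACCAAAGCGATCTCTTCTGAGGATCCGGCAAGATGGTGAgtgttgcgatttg
GPX4: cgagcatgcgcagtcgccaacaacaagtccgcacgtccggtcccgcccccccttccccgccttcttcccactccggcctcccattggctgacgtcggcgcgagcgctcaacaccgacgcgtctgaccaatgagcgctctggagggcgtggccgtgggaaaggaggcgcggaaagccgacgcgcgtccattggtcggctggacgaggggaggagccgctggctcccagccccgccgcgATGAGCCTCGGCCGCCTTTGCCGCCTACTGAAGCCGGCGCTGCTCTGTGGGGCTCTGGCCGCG
CNN2: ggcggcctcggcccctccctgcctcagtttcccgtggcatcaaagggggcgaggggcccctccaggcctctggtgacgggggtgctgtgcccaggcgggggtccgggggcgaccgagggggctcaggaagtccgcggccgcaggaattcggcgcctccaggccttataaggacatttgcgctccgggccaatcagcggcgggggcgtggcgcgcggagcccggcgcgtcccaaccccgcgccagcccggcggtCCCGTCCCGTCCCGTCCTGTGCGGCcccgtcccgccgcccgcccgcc

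Peaks covered 23 of the 300 bases at SMARCA4, 75 at RPS15, 63 at GPX4 and 25 at CNN2 in all the lists that define each class. At RPS15 the peak was 75 nt long in both knockdown lists and began before the RefSeq start. At GPX4 the peak was 387 nt long in both knockdown lists, began before the start used here and ran on past the window. That start lies downstream of base 1103994, where RefSeq begins the gene, so the window is not at the gene's first base. At SMARCA4 its span was 271 nt in wild-type list 1 and 296 nt in list 2, and its percentile 80.6 and 80.5. At CNN2 the spans were 25 and 402 nt in wild type, against 100 and 377 nt in knockdown. RPS15 as a gene held peaks in all 4 lists (2, 2, 1 and 2), so the class of its start region is not the class of the gene.

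Peaks over the first 50 transcribed bases were found in 171 of the 1510 chromosome 19 genes with a start window outside ZNF genes. They were present in 25 and 42 genes in wild-type lists 1 and 2, against 93 and 120 in knockdown lists 1 and 2. As a share of the genes with a peak in the list this was 10.6 and 15.3% against 21.5 and 23.8%, and the groups did not overlap (exact permutation p = 0.333, two-sided). Of the 76 genes with such a peak in both knockdown lists, 63 (82.9%) had none in either wild-type list, where 72.1% of the 749 such genes of all chromosomes were gained. Of the 12 in both wild-type lists, 6 had none in either knockdown list, where the background was 44.1% of 213 genes. Over all chromosomes such start peaks thus recurred in 749 genes in knockdown, against 213 in wild type. The larger numbers in knockdown were therefore not limited to chromosome 19. The share of genes is not given here for other chromosomes. Only 4 start regions kept a peak in all 4 lists.

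The CNNCNNCNN pattern, 3 cytidines each followed by any 2 bases, has been described around ac4C sites. It was searched in the first 50 bases on the transcribed strand only. Counted by gene, any start window of the gene could hold it. It was then present in 70.9% of the 481 genes with a peak and a window, and in 73.4% of such genes on other chromosomes. Counted by single window, it was present in 59.8% of all 1917 chromosome 19 windows and in 55.5% of all 35116 windows. A gene can have several windows, so the counts by gene and by window are unlike measures and cannot be compared. SMARCA4, GPX4 and CNN2 of the 4 genes above held it and RPS15 did not.

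Of the microRNA hairpins, MIR1227 and MIR640 lay wholly under a peak in the 2 knockdown lists but in no wild-type list. The spans over MIR640, in GATAD2A, were 29130 nt long, at percentiles 86.1 and 77.4. Those over MIR1227 were short, so its sequence is shown. MIR1227 sits on the minus strand in PLEKHJ1, a gene for a pleckstrin homology domain protein, at chr19:2234062-2234149. Its 88 nt lay under peaks at percentiles 92.4 and 84.2. These peaks spanned 213 to 263 nt and so reached beyond the hairpin into PLEKHJ1 RNA, and which RNA was captured was not tested. The hairpin and its mature products, the latter with the seed (bases 2 to 8) in capitals, are given as RefSeq has them.
MIR1227: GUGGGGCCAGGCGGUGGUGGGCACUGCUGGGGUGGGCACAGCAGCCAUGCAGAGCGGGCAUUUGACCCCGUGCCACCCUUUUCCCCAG
hsa-miR-1227-5p: gUGGGGCCaggcggugg
hsa-miR-1227-3p: cGUGCCACccuuuuccccag

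PLEKHJ1 held 1 and 0 peaks in the wild-type lists, against 7 in each knockdown list. Of the 130 hairpins of chromosome 19 in RefSeq, 19 lay at least in part under a peak in some list. Wild-type lists 1 and 2 had 3 and 5 of them, and knockdown lists 1 and 2 had 6 and 13. Most of this difference was in knockdown list 2. The chromosome 19 peaks outside ZNF genes also covered more bases, 755 and 1081 kb in wild type, against 2123 and 3434 kb in knockdown. Hairpins of other chromosomes were not counted, so nothing about hairpins is read from these numbers.

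The chromosome 19 peaks outside ZNF genes were more numerous in the knockdown lists. Wild-type lists 1 and 2 held 888 and 1090 of them, against 1822 and 2645 in the knockdown lists, or 989 ± 143 against 2233.5 ± 582 (SD, n = 2 each). Both knockdown lists exceeded both wild-type lists, although the knockdown lists were the shorter ones, at 27787 and 36476 peaks in all against 37988 and 38150. As a share of the list the chromosome 19 peaks were 2.34% (exact 95% interval 2.19 to 2.49) and 2.86% (2.69 to 3.03) in wild type. In knockdown they were 6.56% (6.27 to 6.85) and 7.25% (6.99 to 7.52). The intervals cover counting error only and treat each peak as independent. Genes held several peaks each, so the intervals are likely too narrow. The mean share was 2.60 ± 0.367% in wild type, against 6.90 ± 0.491% in knockdown, 2.66 times as large.

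**Figure D1:**
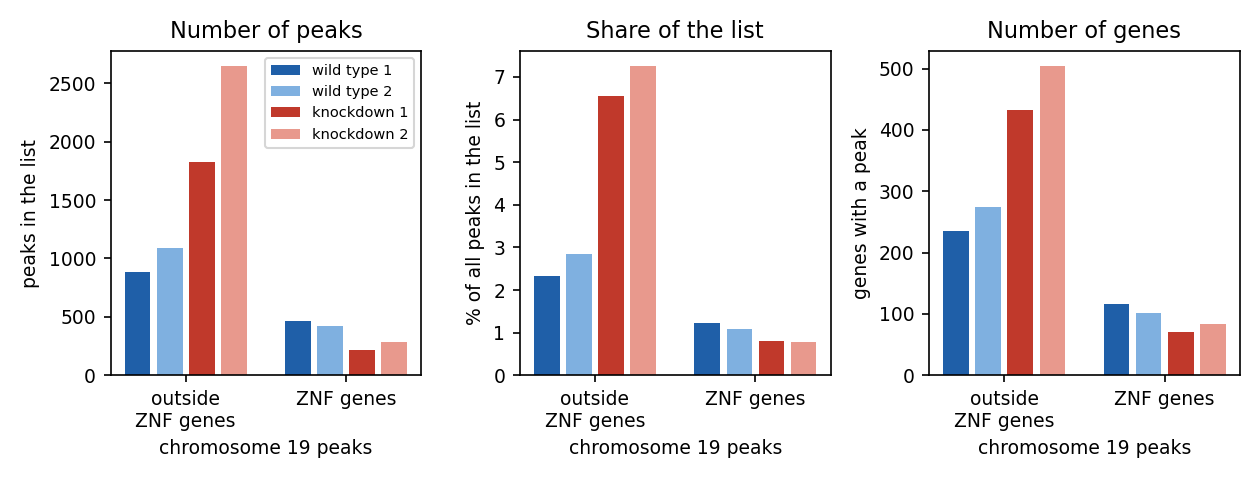
Chromosome 19 peaks in each of the 4 lists, outside ZNF genes and in ZNF genes: number of peaks (left), percent of all peaks in the list (middle) and number of genes with a peak (right), 1 bar per list. Outside ZNF genes both knockdown bars stand above both wild-type bars in all 3 panels, and in ZNF genes both stand below.

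The ZNF genes of the same chromosome went the other way. Their peaks numbered 464 and 418 in wild-type lists 1 and 2, against 221 and 284 in the knockdown lists, and their share was 1.22 and 1.10% against 0.795 and 0.779%, a ratio of 0.679. The ZNF groups did not overlap either. The opposite order within 1 chromosome is also a description, since the rule separates the ZNF genes by name.

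More genes and more peaks per gene both entered this count. The lists held 236 and 274 such genes in wild type, against 433 and 504 in knockdown, a ratio of 1.84. Peaks per gene were 3.76 and 3.98 in wild type, against 4.21 and 5.25 in knockdown, a ratio of 1.22. On other chromosomes peaks per gene ran from 5.57 and 5.24 in wild type to 4.01 and 4.60 in knockdown. The chromosome 19 value minus that of the other chromosomes was -1.81 and -1.26 in wild type, against 0.202 and 0.643 in knockdown, with no overlap between the genotypes (exact permutation p = 0.333). The knockdown lists also differed from each other, with knockdown list 2 the higher in peaks, genes and peaks per gene. Without knockdown list 1 the difference in peaks per gene was 1.38, and without knockdown list 2 it was 0.337, against 0.858 with both.

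The spans were longer in knockdown. The median span was 75 nt in both wild-type lists and 125 and 150 nt in the knockdown lists (exact permutation p = 0.333). Spans over 1000 nt made up 15.7 and 13.8% of the peaks in wild type, against 20.7 and 23.4% in knockdown. Spans of 25 nt made up 26.7 and 24.8% against 21.4 and 19.5%. In both measures the genotypes did not overlap. The median on other chromosomes was 125 and 150 nt in wild type, against 125 nt in both knockdown lists. The chromosome 19 median was thus 50 and 75 nt below the rest in wild type, and 0 and 25 nt above it in knockdown (exact permutation p = 0.333). When spans over 1000 nt were left out, the median of the knockdown lists exceeded that of the wild-type lists by 12.5 nt (exact permutation p = 1).

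The longest spans were few and long. KDM4B, which encodes a histone H3 lysine demethylase, held a span of 63802 nt in knockdown list 2 (chr19:4969213-5033014, plus strand, percentile 46.5). OLFM2, which encodes a secreted olfactomedin domain protein, held the same span of 55339 nt in both knockdown lists (chr19:9858147-9913485, minus strand), at percentiles 52.3 and 92.7. PTPRS, which encodes a receptor-type tyrosine phosphatase, held one of 47561 nt in wild-type list 2 (chr19:5293243-5340803, minus strand). Exon boundaries were not used here, so how much of such a span is intron is not given.

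Scores ranked higher within the knockdown lists than within the wild-type lists. The median percentile of the chromosome 19 peaks was 41.3 and 36.7 in wild type, against 46.4 and 51.0 in knockdown, and the genotypes did not overlap (exact permutation p = 0.333). Against the peaks of other chromosomes the difference was -9.04 and -13.9 percentile points in wild type, against -3.85 and 0.957 in knockdown. At or above percentile 99 stood 7 and 4 peaks in wild type, against 17 and 41 in knockdown. As a share of the chromosome 19 peaks this was 0.788 and 0.367% in wild type, against 0.933 and 1.55% in knockdown. On other chromosomes it was 1.02 and 1.03% against 1.01 and 0.966%. Below percentile 25 stood 31.0 and 35.8% of the chromosome 19 peaks in wild type, against 27.9 and 24.5% in knockdown. Each list was also limited to its 27787 strongest peaks, the length of the shortest list, knockdown list 1. The share then differed by 4.65 percentage points, against 4.31 with the whole lists. The median percentile differed by 0.535 points (exact permutation p = 1), against 9.72. Percentiles stayed those of the whole lists, and the cut took the weakest peaks of the longer lists only. It thus raised the wild-type medians by construction, and the 0.535 cannot show what list length does to the rank.

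The 6 highest scores were all in knockdown list 2. SNRNP70, which encodes a core protein of the U1 small nuclear ribonucleoprotein, led with a peak at percentile 99.9 (score 299.687, chr19:49090634-49101480, plus strand). USF2, which encodes an E-box binding transcription factor, had one with a score of 298.235 (chr19:35271081-35275095, plus strand). SAFB2, a scaffold attachment factor gene, had one of 102 nt with a score of 267.185 (chr19:5610590-5610691, minus strand). All 3 genes carried peaks in all 4 lists, and their peak numbers moved little: 3, 4, 4 and 3 in SNRNP70, 5, 7, 3 and 5 in USF2 and 5, 5, 5 and 6 in SAFB2, in the order wild type 1 and 2, knockdown 1 and 2. No peak outside ZNF genes on chromosome 19 had an infinite score.

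Along the chromosome, the larger numbers in knockdown lay in the gene-rich arms and not in the middle. The peaks were counted in 12 bins of 5 Mb. In 9 bins both knockdown lists held more peaks and a larger share than either wild-type list, and in 0 bins fewer. Of the 591 bins of all chromosomes with any peak, 9.31% held more peaks and 20.3% a larger share in both knockdown lists.

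The largest ratio of shares, 4.38, was in the bin from 40 to 45 Mb, where 51 and 59 peaks in wild type stood against 160 and 252 in knockdown. The bin from 50 to 55 Mb followed at 4.01, with 29 and 34 against 80 and 137 peaks. The bins from 45 to 50 Mb and from 15 to 20 Mb had ratios of 3.21 and 3.19. From 45 to 50 Mb there were 114 and 166 peaks against 320 and 440, and from 15 to 20 Mb 97 and 140 against 260 and 382. The first 3 bins, from the short-arm end to 15 Mb, had ratios of 2.47, 2.45 and 2.34, and the bin from 35 to 40 Mb had 2.63. In each of these bins the genotypes did not overlap.

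The bins around the centromere were different. From 20 to 25 Mb there were 13 and 9 peaks in wild type, against 6 and 11 in knockdown, a share ratio of 0.895. Of the 34 protein-coding genes of that bin, 32 were ZNF genes, whose peaks numbered 93 and 97 in wild type, against 61 and 67 in knockdown. From 25 to 30 Mb there were 5 and 11 against 8 and 19 peaks. From 30 to 35 Mb there were 79 and 56 against 40 and 73, a share ratio of 0.970. In these 3 bins the peak numbers of the genotypes overlapped. The last bin, from 55 to 60 Mb, held 46 and 41 against 56 and 79 peaks, a ratio of 1.83.

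**Figure D2:**
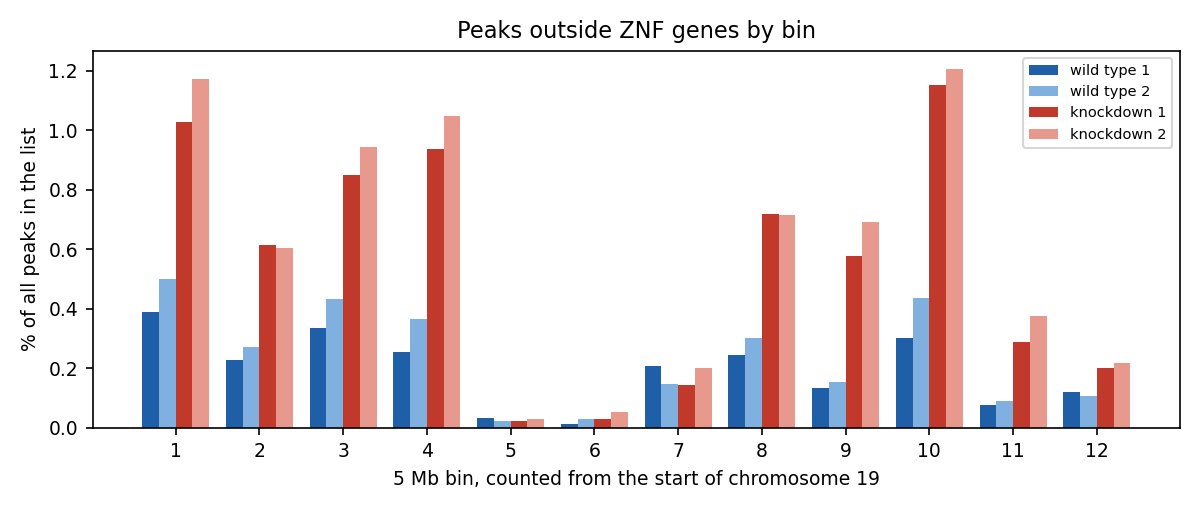
Percent of all peaks in each list that fell in each 5 Mb bin of chromosome 19 outside ZNF genes, with bins numbered from the start of the chromosome and 1 bar per list. The knockdown bars stand above both wild-type bars in bins 1 to 4 and 8 to 12, and are mixed with them in bins 5 to 7.

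The gene with the most peaks in each bin was, from the start of the chromosome, TCF3, PTPRS, DNMT1, MYO9B, LINC01224, CCNE1, LSM14A, SAMD4B, HNRNPUL1, ARHGAP35, PRPF31 and EPN1. LINC01224, a long noncoding RNA gene, held 6 and 3 peaks in wild type, against 1 and 8 in knockdown. CCNE1, the gene of cyclin E1, held 2 and 3 against 6 and 5. LSM14A, which encodes a P-body protein, held 15 and 8 against 4 and 7. SAMD4B, which encodes an RNA-binding protein of the Smaug family, held 0 and 6 against 13 and 16. CCNE1 and SAMD4B were thus higher in both knockdown lists, LSM14A was lower in both, and LINC01224 overlapped.

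Other gene-dense chromosomes stood nearest to chromosome 19. The ratio of knockdown to wild-type shares was 2.05 for all of chromosome 19, 1.53 for chromosome 22, 1.34 for 20, 1.33 for 16, 1.23 for 17 and 1.20 for 11. At the low end it was 0.698 for chromosome 4, 0.691 for 18 and 0.668 for Y. Chromosome 19 has 24.8 RefSeq protein-coding genes per Mb and chromosome 17, the next densest, 14.04. Across 24 chromosomes the ratio and the gene density had a Spearman coefficient of 0.870 and a Pearson r of 0.897, and without chromosome 19 0.853 and 0.784. The points share the same 4 lists, and their shares sum to a fixed total, so the correlation is only a description.

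**Figure D3:**
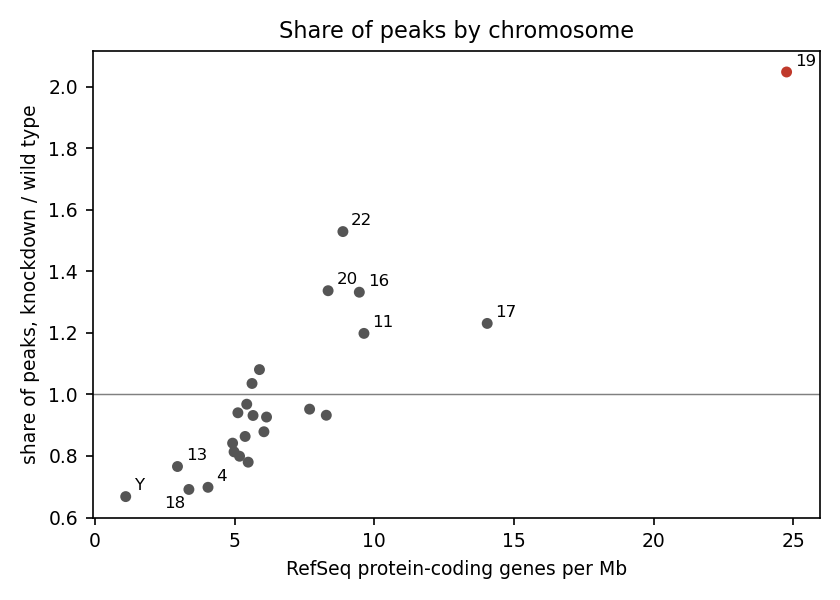
Ratio of the mean share of peaks in the knockdown lists to that in the wild-type lists, against RefSeq protein-coding genes per Mb, 1 point per nuclear chromosome. Chromosome 19, with its ZNF genes included, lies at 2.05 and 24.8 genes per Mb, apart from the others.

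Gene length and promoter GC content differ between chromosomes, so the ratio was also taken within quintiles of all genes by these properties, a division chosen after the data were seen. From the shortest to the longest quintile of genes the ratio on chromosome 19 outside ZNF genes was 2.92, 3.05, 2.60, 2.45 and 1.48. For the other chromosomes it was 1.53, 1.29, 1.00, 0.828 and 0.733. From low to high promoter GC the chromosome 19 ratio was 2.26, 3.73, 2.94, 2.46 and 2.31, and that of the other chromosomes 0.806, 0.940, 0.985, 1.03 and 1.03. The chromosome 19 ratio was the larger in all 10 quintiles, which divide the same peaks by length and again by GC. Chromosome 19 was selected on its share of peaks, so this order is a description. The part of gene length or GC content in the ratio was not tested. By length, both ratios were smallest in the longest genes.

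**Figure D4:**
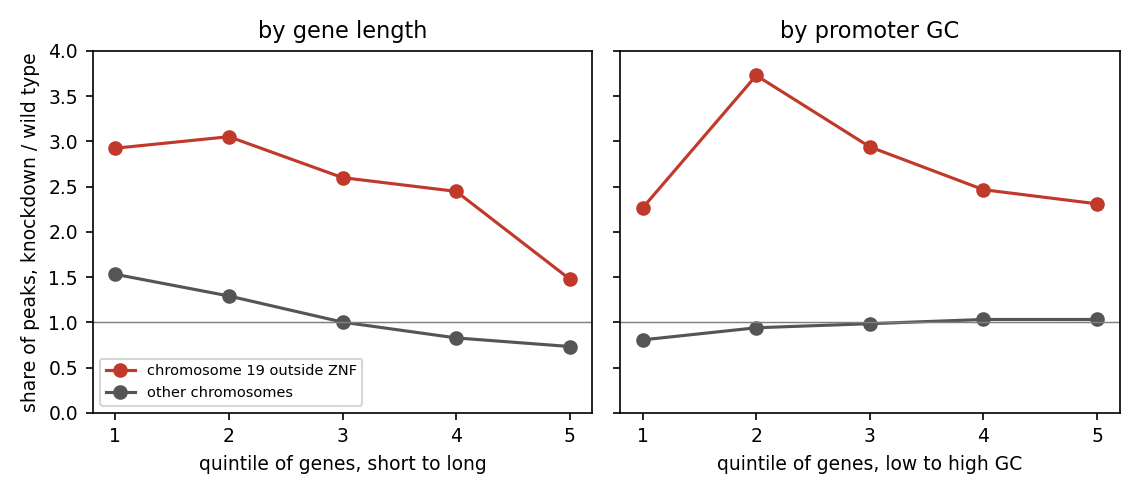
Ratio of the share of peaks in the knockdown lists to that in the wild-type lists, within quintiles of genes by length (left, short to long) and by promoter GC content (right, low to high), for chromosome 19 outside ZNF genes and for other chromosomes. The chromosome 19 line lies above the other in every quintile, from 1.48 to 3.73.

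Peaks recurred unequally between libraries. In wild type, 44.4% of the peaks of list 1 shared a region with a peak of list 2, and 35.0% the other way round. In knockdown, 70.6% of the peaks of list 1 were met in list 2, and 43.8% of the larger list 2 in list 1. On other chromosomes knockdown list 1 was met in list 2 for 51.3% of its peaks. Of the knockdown peaks on chromosome 19, only 13.95 to 20.03% were met in any 1 wild-type list, where the range on other chromosomes was 27.7 to 32.0%. In the other direction, 33.0 to 43.2% of the wild-type peaks on chromosome 19 were met in a knockdown list, where the range on other chromosomes was 22.5 to 26.6%. The chromosome 19 lists are of unequal size, with more peaks in knockdown.

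For a comparison by position, overlapping peaks of different lists were joined into regions wherever they had 1 bp or more in common on 1 strand. Gained regions or genes are those with a peak in the 2 knockdown lists and in no wild-type list, lost ones the reverse, and kept ones those with a peak in all 4. Of 3961 regions, 2522 (63.7%) were in 1 list only. Of the 1062 in both knockdown lists, 722 (68.0%) were gained, with 48.1% gained over all chromosomes. Of the 327 in both wild-type lists, 143 (43.7%) were lost, with 52.2% over all chromosomes. Another 138 regions (3.48%) were kept, with 3.4% over all chromosomes. These counts move with single libraries, since a class then needs fewer lists. There were 2029 gained regions without knockdown list 1 and 1179 without knockdown list 2. Lost regions came to 605 without wild-type list 1 and 439 without wild-type list 2, and kept regions to 248 and 230.

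At the level of genes the gained class was far larger than the lost one. Of 580 genes with a peak in any list, 387 held one in both knockdown lists, and 142 of these (36.7%) were gained, with 17.1% gained over all chromosomes. Of the 173 held by both wild-type lists only 5 (2.89%) were lost, with 12.8% over all chromosomes, and 144 genes (24.8%) were kept, with 32.3%. In ZNF genes of chromosome 19, 20 of 72 (27.8%) were lost and 4 of 49 (8.16%) gained. Without knockdown list 1 the gained genes numbered 218. The lost genes numbered 19 without wild-type list 1, 16 without wild-type list 2, 16 without knockdown list 1 and 18 without knockdown list 2, so their small count rests on every list.

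Peak numbers within genes leaned the same way. Both knockdown lists held more peaks than either wild-type list in 239 of the 580 genes (41.2%), with 16.6% over all chromosomes, and fewer in 21 (3.62%), with 22.3%. Among the 144 genes with a peak in all 4 lists, 48 (33.3%) had more, with 12.6% over all chromosomes, and 6 (4.17%) had fewer, with 31.9%.

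**Figure D5:**
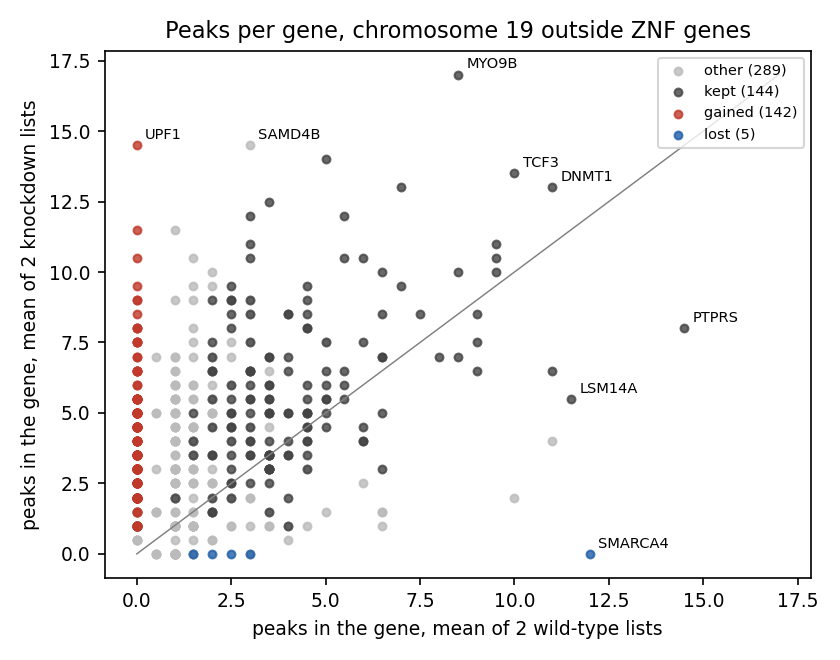
Mean number of peaks per gene in the 2 knockdown lists against that in the 2 wild-type lists, 1 point for each of the 580 chromosome 19 genes outside the ZNF genes, with the line of equality. Gained genes (142) lie on the left axis, lost genes (5) on the bottom axis, and kept genes (144) spread on both sides of the line with more of them above it.

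A gene missing from a list is not a gene without any called peak. The authors numbered the peaks of a list, and some numbers were not listed. For 73 of the 142 gained genes (51.4%) both wild-type lists had an unlisted number at the gene's place in the order of numbering, for 121 at least 1 had, and for 21 (14.8%) neither had. On other chromosomes neither had for 14.4% of the 814 gained genes. All 5 lost genes had unlisted numbers in both knockdown lists. An unlisted number can also belong to a gene next in that order.

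The lost genes had few peaks, except one. SMARCA4 held 13 and 11 peaks between bases 10961032 and 11062062, with 0 in knockdown, where 19 and 18 numbers at its place were unlisted. UBE2S, which encodes a ubiquitin-conjugating enzyme that works with the anaphase-promoting complex, held 4 and 2 peaks in wild type. ISYNA1, the gene of inositol-3-phosphate synthase, held 3 and 2. RPS9, of the small ribosomal subunit, held 2 and 2, and EIF3K, of translation initiation factor eIF3, 2 and 1. In all 5 both knockdown lists stood at 0.

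UPF1, which encodes the RNA helicase at the centre of nonsense-mediated decay, led the gained genes. It had 0 peaks in either wild-type list but 14 and 15 in knockdown, from base 18832284 to base 18868157 in both, which is nearly the whole gene. Its best percentiles were 86.4 and 90.3, and each wild-type list had 3 unlisted numbers at its place. CCDC8, which encodes a partner of the ubiquitin ligase scaffold CUL7, held 7 and 11 peaks, and the wild-type lists had 0 and 1 unlisted numbers. UPF1 and CCDC8 thus differ in what stands at their place in the wild-type lists.

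The other gained genes with most peaks were enzymes, signalling proteins and a repressor. CIC, which encodes the transcriptional repressor capicua, held 6 and 15 peaks in the knockdown lists. ATP13A1, which encodes a P5-type ATPase of the endoplasmic reticulum, held 3 and 16. PIK3R2, the p85-beta regulatory subunit of PI3 kinase, held 6 and 12, and PAK4, a p21-activated kinase, 8 and 9. In CIC, ATP13A1 and PIK3R2 knockdown list 2 held at least 2 peaks for each 1 in list 1. ARHGEF1 and PLEKHG2, both guanine nucleotide exchange factors for small GTPases, held 5 and 11 and 4 and 12 peaks. KRI1, the relative of a yeast ribosome assembly factor, held 9 and 7.

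Of the 10 kept genes with the most peaks, 5 held more peaks in both knockdown lists than in either wild-type list, 4 overlapped and 1 held fewer. MYO9B, which encodes an unconventional myosin, held 8 and 9 peaks in wild type, against 11 and 23 in knockdown. GATAD2A, a subunit of the NuRD complex, held 5 and 9 against 11 and 15, and TCF3, the transcription factor E2A, 9 and 11 against 15 and 12. KHSRP, a KH-domain RNA-binding protein, held 8 and 9 against 10 and 10.

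PTPRS held fewer, with 16 and 13 peaks in wild type, against 6 and 10 in knockdown. DNMT1, the maintenance DNA methyltransferase, held 10 and 12 peaks in wild type, against 15 and 11 in knockdown. HNRNPUL1, a nuclear ribonucleoprotein, held 10 and 9 against 12 and 10. DNM2, the GTPase dynamin 2 of endocytosis, held 10 and 9 against 7 and 13. The groups overlapped in DNMT1, HNRNPUL1 and DNM2.

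A kept gene did not mean kept regions. Of the 144 kept genes, 94 held a region present in all 4 lists and 50 held none. A gained region lay in 118 of them, a lost region in 66 and both in 56. Together they carried 250 gained, 102 lost and 138 kept regions.

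The lost regions that ranked highest within their lists were mostly in genes with other peaks in knockdown. The highest was at SMARCA4 (chr19:11059216-11059815, plus strand), with percentiles of 98.1 and 98.5 in the wild-type lists. At SGTA, a co-chaperone gene, 75 nt (chr19:2759243-2759317, minus strand) stood at percentiles 97.7 and 99.5. SGTA held 5 and 3 peaks elsewhere in the knockdown lists. At RPL13A, of the large ribosomal subunit, 75 nt (chr19:49491729-49491803, plus strand) stood at 96.6 and 97.8. Processed copies of ribosomal protein genes can share reads with them, so peaks at RPL13A are uncertain. FXYD5, USF2, TRIM28, HNRNPL, FBL and CALR were also among the 10 highest. Of the 10 genes only SMARCA4 had no peak in either knockdown list.

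The gained regions that ranked highest stood near the top of the knockdown lists. At GPX4 125 nt (chr19:1105178-1105302, plus strand) stood at percentiles 99.4 and 99.8 in the knockdown lists. The gene held 5 and 7 peaks in knockdown and 0 in wild type. SF3A2, a subunit of the splicing factor SF3a, had a region of 989 nt (chr19:2245836-2246824, plus strand) at 99.2 and 99.8. EIF3G, of initiation factor eIF3, had one of 75 nt (chr19:10119830-10119904, minus strand) at 99.2 and 99.4. Those of LIG1, PTBP1, CDC37, AKAP8L, MED29 and ETFB were also among the 10 highest. GPX4, EIF3G and ETFB of these 10 genes held no peak in either wild-type list, and the other 7 held peaks elsewhere in both.

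The kept region that ranked highest lay in SAE1, which encodes a subunit of the SUMO-activating enzyme (chr19:47157172-47180154, plus strand). It stood at percentiles 99.5, 99.3, 99.1 and 99.5 in the 4 lists. TPM4, a tropomyosin gene, followed with a region (chr19:16081891-16086312, plus strand) at 98.6, 94.8, 99.5 and 98.8. C19orf53 had a kept region of 375 nt (chr19:13778052-13778426, plus strand) and RPS28 one of 125 nt (chr19:8322272-8322396, plus strand). Over all 138 kept regions the median percentile was 52.2 and 45.7 in wild type, against 66.4 and 81.1 in knockdown, without overlap. On other chromosomes the kept regions stood at 68.3 and 66.3 against 72.4 and 76.4. The gained regions of chromosome 19 had medians of 53.7 and 68.0, and the lost ones 53.2 and 53.9.

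Gained genes lay next to each other in 28 runs among the genes with a peak. Since 142 of the 580 genes were gained, some runs would also arise in a random order. How many was not tested, so the runs are only listed. The longest run had 4 genes, NFKBIB, SARS2, MRPS12 and PAK4, from 38899666 to 39182816, with 17 and 21 peaks in the knockdown lists. NFKBIB encodes an inhibitor of NF-kappa-B, SARS2 the mitochondrial seryl-tRNA synthetase and MRPS12 a mitochondrial ribosomal protein. GSK3A, ERF and CIC, a kinase gene and 2 repressor genes, formed a run of 3 from 42230190 to 42295796 with 12 and 33 peaks. Neighbouring genes can overlap. Peaks that overlapped a peak on the other strand made up 3.38 and 2.57% in wild type, against 5.32 and 5.82% in knockdown, and whether the authors' calling used the strand is not given in the sources used here.

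Functional lists of chromosome 19 genes were compared next, by counts alone. Over all chromosomes, as given above, 17.1% of genes were gained, 12.8% lost, 16.6% had more peaks in knockdown and 22.3% fewer. Since the lists hold chromosome 19 genes only, their counts stand beside that chromosome's own 36.7% gained, 2.89% lost, 41.2% with more and 3.62% with fewer peaks, and nothing is read from a list that exceeds the former alone. Signalling kinases and receptors had a peak in 19 of 29 genes. They held 34 and 42 peaks in wild type, against 84 and 135 in knockdown, and 6 of the 16 genes with a peak in both knockdown lists were gained. They included PIK3R2, PAK4, MAP2K7, GSK3A and GNA11. MAP2K7, a kinase that activates JNK, held 8 and 7 peaks in knockdown. MARK4, a microtubule affinity-regulating kinase, was kept with 3 and 4 against 12 and 13. INSR, the insulin receptor gene, was the 1 gene with fewer, at 5 and 8 against 2 and 0.

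Genes of the cytoskeleton and vesicle traffic had a peak in 20 of 23. Their peaks numbered 55 and 61 in wild type, against 104 and 138 in knockdown. Both knockdown lists held more peaks in 12 of the 20 genes and fewer in 0. Of the 18 with a peak in both knockdown lists 5 were gained, namely MYH14, TUBB4A, AP1M1, RAB3A and COPE. MYH14, which encodes a nonmuscle myosin heavy chain, held 2 and 12 peaks, so its number rested mainly on knockdown list 2.

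Chromatin and DNA methylation genes had a peak in 22 of 26. Their peaks numbered 73 and 103 against 134 and 164. In 10 genes both knockdown lists held more peaks and in 2, SMARCA4 and TRIM28, fewer. TRIM28, the corepressor that KRAB zinc finger proteins recruit, held 8 and 5 peaks in wild type, against 0 and 3 in knockdown. KMT2B, a histone H3 lysine 4 methyltransferase gene, held 2 and 4 against 10 and 14, and SUPT5H, of the elongation factor DSIF, 4 and 5 against 9 and 10. Gained were RUVBL2, with 8 and 5 peaks, and MIER2, with 5 and 5.

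Transcription factors other than zinc fingers had a peak in 20 of 33 genes, with 28 and 44 peaks against 70 and 86. Of the 12 with a peak in both knockdown lists 6 were gained: CIC, ERF, ATF5, TEAD2, NFKBIB and RFXANK. CEBPG, of the C/EBP family, was the 1 gene with fewer, at 5 and 5 against 3 and 0. The zinc finger genes that bear other names than ZNF had a peak in 9 of 22, with 10 and 16 peaks against 11 and 20. None of them was lost, gained or kept.

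Genes of DNA replication, repair and the cell cycle had a peak in 20 of 23, with 48 and 41 peaks against 78 and 91. In 12 both knockdown lists held more peaks, and in 2, UBE2S and UBA2, fewer. ERCC2, the XPD helicase gene of TFIIH, held 2 and 2 peaks against 6 and 8. XRCC1, a scaffold of single-strand break repair, was gained with 4 and 5.

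Splicing and pre-mRNA binding genes had a peak in 25 of 26, with 100 and 115 peaks against 123 and 130. Of these, 15 were kept and 3, SUGP1, XAB2 and U2AF1L4, gained. Both knockdown lists held more peaks in 8 and fewer in 2, HNRNPL and SUGP2. HNRNPL, which binds CA repeats in pre-mRNA, held 13 and 7 against 4 and 0. The peak numbers of this list differed less than those of the signalling list, a difference that was not tested.

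All 13 ribosomal protein genes had a peak in some list, with 24 and 28 peaks in wild type, against 30 and 35 in knockdown. RPS9 was lost, 4 were kept, and of the 8 with a peak in both knockdown lists 0 were gained. Ribosome biogenesis and RNA polymerase genes had a peak in 8 of 8, and in 5 both knockdown lists held more. In FBL, the gene of the box C/D methyltransferase fibrillarin, they held fewer, at 5 and 3 against 0 and 1.

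Translation factors and tRNA synthetases had a peak in 9 of 11, with 12 and 7 against 24 and 24 peaks. Gained were SARS2, MRPS12, DHPS and EIF3G, while EIF3K, of the same initiation factor as EIF3G, was lost. RNA decay and export genes had a peak in 7 of 8, and UPF1 and EXOSC5, an exosome subunit gene, were gained. Genes of oxidative phosphorylation and mitochondrial import had a peak in 17 of 19, with 29 and 30 against 46 and 66 peaks. Of the 14 with a peak in both knockdown lists 3 were gained, NDUFS7, NDUFA11 and NDUFA13. They encode complex I subunits, as do NDUFA3, NDUFA7 and NDUFB7, which were not gained.

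Few genes of other cell types held peaks. None of 14 imprinted and oocyte genes had a peak, and 2 of 19 leukocyte receptor genes had, with 2 and 2 peaks in wild type, against 0 and 6 in knockdown. Of 16 genes of epithelium, placenta, liver and muscle 5 had a peak, with 6 and 5 against 15 and 11 peaks. RYR1, the calcium release channel of skeletal muscle, held 10 and 5 peaks in knockdown but 0 in either wild-type list. TNNT1, a troponin T of slow skeletal muscle, held 3 and 0 against 5 and 2. APOE went the other way, with 3 and 3 against 0 and 2. C3 held 0 and 2 against 0 and 0, and TNNI3 0 and 0 against 0 and 2. Of the 5 genes, 1 thus held more peaks in both knockdown lists and 1 fewer. The part of other cell types in the results was not tested. Among p53 targets and apoptosis genes 4 of 10 had a peak, and BAX, which permeabilises mitochondria in apoptosis, held 2 and 2 against 5 and 8. The remaining lists (RNA modification, metabolism and transport, proteasome with ubiquitin and chaperones, and phosphatase subunits) had gained genes numbering 1, 2, 3 and 2, and lost genes numbering 0, 0, 1 and 0.

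The largest share of the peaks lay near the end of their genes. Of peaks up to 1000 nt that could be placed in their gene, 45.1 and 41.3% in wild type, against 45.2 and 48.5% in knockdown lay in the last quintile of the gene. In the first quintile lay 17.6 and 18.9% against 19.2 and 15.6%. The genotypes overlapped in the first quintile and not in the last, where wild-type list 1 and knockdown list 1 were close. On other chromosomes the last quintile also held the largest share, but in the opposite order, with 49.7 and 48.0% in wild type, against 41.4 and 43.6% in knockdown. All of the placed chromosome 19 peaks had the strand of their gene. The minus strand held 42.5 and 45.3% of the peaks in wild type, against 45.8 and 46.5% in knockdown (exact permutation p = 0.333).

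The genes themselves were mostly protein-coding. Of the 580 genes 579 were matched to RefSeq, 546 of them protein-coding and 23 long noncoding RNA genes. The median gene length was 15.7 kb, against 34.2 kb for genes with a peak on other chromosomes. It was 15.3 kb for gained genes on chromosome 19 and 15.96 kb for gained genes elsewhere, and 20.8 and 46.2 kb for kept genes. The median promoter GC content was 66.0% on chromosome 19 and 64.7% elsewhere.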

How the data were processed

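The authors' 4 deposited peak lists, 1 per immunoprecipitation library, hold a position, strand, score and running number for each peak, with the Ensembl identifier and symbol of its gene. The build was hg38, and the tools named were HISAT2 2.2.1, fastp 0.21.1, bedtools 2.30.0 and SAMtools 1.12, per the submitters' processing notes. Which caller, cutoff, control library and annotation made the lists is not given in the sources used here. The score in the deposited lists is the authors' own and was never below 10, and it was used only to rank and filter peaks within a list. Starts in the deposited lists count from 0.

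Peaks were selected by chromosome and symbol, merged by strand at an overlap of at least 1 bp, and counted per list, gene and 5 Mb bin (pandas 2.3.3, NumPy 2.4.6). The genotypes were compared on 1 value per library with an exact permutation test, two-sided, which has 6 arrangements for 2 against 2 libraries. The merging and class calls were tested on simulated lists. Genes were matched to RefSeq (GRCh38.p14) by symbol and chromosome, or by a synonym that fits 1 gene only, for names, lengths, hairpins and start windows. The windows' orientation was checked with the hairpins that fall inside them, whose letters were found in 13 of 13 plus-strand and 9 of 9 minus-strand windows. The merged regions mixed genes in 1 of 3961 cases.

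The peaks and the 20 gene lists were chosen with earlier results of these data known. Named genes were, by rule, the 10 lost, 10 gained and 10 kept genes with the most peaks, and as many regions by their lowest percentile. To these came the leading gene of each bin, the 3 longest spans, the 3 highest scores, and 2 to 4 genes per list. Members of a class of 6 or fewer and genes shown for their sequence were chosen after their values were seen. So were TNNT1, APOE, C3, TNNI3, FBL, CEBPG, INSR, RPS28 and TRIM28 where the rule did not reach them. Alternatives changed the score filter, span filter, overlap, strand, zinc finger rule, bin offset and libraries. The replicate numbers of the labels were shared by both genotypes. Values of some genes that the rule named are not reported here.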

Additional observations from a re-analysis of the deposited data

How the results depend on the processing

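All per-list differences between knockdown and wild type (peaks, share, genes, peaks per gene, median span, spans over 1000 nt, median percentile, minus strand) and the bins kept their direction under every alternative run, except that without spans over 1000 nt their share is 0 by construction. Of 138 values under alternatives, 20 moved and 0 reversed, and the other 118 kept their direction or, for counts, stayed within 1.5 times. Sizes could still change. The difference in median span fell from 62.5 to 12.5 nt without spans over 1000 nt. That in minus strand rose from 2.297 to 6.82 points in the stronger 50%. The difference in median percentile was 9.72 with whole lists and 0.535 with lists of equal length. Percentiles were not ranked anew there, so the cut raised the medians of the longer lists by construction. With the stronger 50% of each list there were 48 lost, 382 gained and 24 kept regions and 80 kept genes. With the strongest peaks up to the length of the shortest list there were 95 lost and 78 kept regions, and without spans over 1000 nt 73 kept regions, fewer by construction.

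With 1 library left out, the differences ran from 833 to 1656 peaks, 3.96 to 4.65 percentage points of share, 178 to 249 genes, 0.337 to 1.38 peaks per gene, 50 to 75 nt of median span, 6.04 to 8.73 points of spans over 1000 nt, 7.39 to 12.04 percentile points and 0.864 to 3.73 points of minus strand. A class then needs fewer lists, so its count is larger. Lost regions came to 159 to 605, gained 814 to 2029 and kept 154 to 248, lost genes to 16 to 19, gained 167 to 218 and kept 155 to 206. The bins with more peaks in knockdown came to 9 to 10.

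With the replicate number as a block, the difference in share was again 4.31 points, and the smallest p that 2 pairs allow is 0.5. The block changed no count of regions or genes, and 10 bins were higher in both pairs. Over 580 genes the deviations of same-numbered libraries had a Pearson r of 0.0505, so the numbers were not shown to pair the libraries.

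Read depth, the meaning of the score and the peak threshold are unknown, so a peak missing from a list is no measure of less ac4C. Input and IgG were not analysed here, and the RNA level of a gene was not tested as a part of any result.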

Other observations

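Genes on chromosome 19 outside the ZNF genes were also sorted by the lists that held a peak. Of the 580 genes, 76 had peaks in knockdown list 2 alone and 25 in knockdown list 1 alone, against 11 in wild-type list 1 alone and 14 in wild-type list 2 alone. Another 62 had peaks in all lists but wild-type list 1, and 39 in all but wild-type list 2. Only 11 were missing from knockdown list 2 alone and 13 from knockdown list 1 alone.

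Among metabolic and transport genes, GPI, the glycolytic enzyme glucose-6-phosphate isomerase, held 7 and 10 peaks in wild type and 6 and 8 in knockdown. SLC1A5, a neutral amino acid transporter, held 3 and 6 against 3 and 4. Both overlapped between the genotypes. CPT1C, a carnitine palmitoyltransferase of brain, held 9 peaks in knockdown list 2 and 0 in the other 3 lists. Of the phosphatase subunits, PPP6R1 held 5 and 7 against 2 and 6 and PPP2R1A, the scaffold of PP2A, 5 and 4 against 2 and 4, while PPP1R12C, a myosin phosphatase subunit, was gained with 3 and 6. In ribosome biogenesis and RNA polymerase genes, POLRMT, the mitochondrial RNA polymerase, held 3 and 0 against 5 and 11, and POLR2E, a subunit shared by RNA polymerases, 3 and 1 against 6 and 9. In POLRMT and POLR2E both knockdown lists were above both wild-type lists.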
